A study of Mus musculus with 5 samples.

Results

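The Sall zinc finger family of mouse embryonic stem (ES) cells was described across 5 microarrays. Its members were the 4 genes Sall1, Sall2, Sall3 and Sall4, out of 19938 genes that the array's annotation names. They were found by gene symbol, and a gene with several probe sets was to be represented by its brightest probe set on average. Each member had exactly 1 probe set, so this step made no choice, and 0 probe sets carried a Sall symbol beside another one. The family was singled out with the outcome of this same comparison known. The differences of its members are therefore given as a description. The count of members that passed the fit over all genes is printed once beside the share of all genes that did, and nothing is read from it.

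All 5 samples are titled tetO-Satb1, which names a Satb1 transgene under a promoter that doxycycline (DOX) switches on. The title of the series speaks of WT cells beside those overexpressing Satb1, and the labels do not settle whether that means the uninduced cells. In the +DOX group, with 3 arrays, DOX was present for 24 h, and the labels call these cells Satb1 overexpression. In the no DOX group, with 2 arrays labelled control, the titles name no DOX. Both groups were grown in serum with LIF, the cytokine that keeps ES cells undifferentiated, and RNA was taken 48 h after passaging. The treatment protocol names irradiated feeder cells, most of which were to be removed by settling before extraction, while the series' design text speaks of LIF only. The labels name neither the ES line, nor the activator that DOX acts through, nor whether the numbers in the titles are clones or cultures, so the spread between arrays may be technical. The effect of DOX itself and that of Satb1 cannot be told apart, since all +DOX samples used here carry the transgene in their titles.

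The Sall genes are the vertebrate relatives of spalt, a homeotic gene of Drosophila. They encode large nuclear proteins with pairs of C2H2 zinc fingers spread along the chain, and a short motif at the start of most of them recruits the NuRD complex, which removes acetyl groups from histones and remodels nucleosomes. Sall4 is needed by the inner cell mass and by ES cells, where its protein works with OCT4 and NANOG, and the last zinc finger cluster of SALL4 binds short AT-rich DNA. Sall1 is also active in ES cells and is best known for kidney development, Sall2 for closure of the eye cup, and Sall3 for the cranial nerves and palate. The induced gene, Satb1, encodes another nuclear protein that binds AT-rich DNA.

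Because both SATB1 and SALL4 are known to bind AT-rich DNA, the base composition in front of the Sall genes is shown. RefSeq start sites of assembly GRCm38.p6 were used for 2 members, Sall1 and Sall2. Sall4 had no entry among the promoters used and Sall3 was left out, so the windows shown do not stand for the family. The 250 bases before the outermost start of each gene are printed 5′ to 3′ on the strand of the gene, with runs of at least 6 A or T in capitals. That of Sall1 is at chr8:89044163-89044412 and that of Sall2 at chr14:52328671-52328920, both on the minus strand.
Sall1: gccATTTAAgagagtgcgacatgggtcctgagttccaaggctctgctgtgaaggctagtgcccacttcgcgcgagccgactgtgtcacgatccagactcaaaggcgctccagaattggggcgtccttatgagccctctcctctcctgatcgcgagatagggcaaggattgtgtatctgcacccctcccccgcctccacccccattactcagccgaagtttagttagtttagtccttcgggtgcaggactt
Sall2: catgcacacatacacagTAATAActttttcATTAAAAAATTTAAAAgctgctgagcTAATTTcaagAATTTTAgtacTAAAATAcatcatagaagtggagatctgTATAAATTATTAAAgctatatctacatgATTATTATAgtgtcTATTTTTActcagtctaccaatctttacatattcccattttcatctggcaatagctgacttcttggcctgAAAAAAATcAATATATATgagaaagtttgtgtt

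These windows differed widely in composition. In front of Sall1, 43.6% of bases were A or T, and 62.4% of the 32851 promoter windows of the same length in the RefSeq table had a higher share. The longest run of A or T in that window had 6 bases, and 66.9% of all windows had a run at least as long. In front of Sall2, 72.0% of bases were A or T, with a longest run of 16 bases, and 0.84% of all windows had a higher A and T share. The motif AATAT, searched on both strands as AATAT and ATATT, occurred 0 times in the Sall1 window and 2 times in the Sall2 window, and 23.3% of all windows held it. At the further start sites the A and T share was lower, at 25.6% and 21.6% for Sall1 and 35.6% for Sall2. Such counts describe letters only. The arrays do not show which start was used or where any protein was bound.

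The arrays were much alike, with medians between 4.91 and 4.92 on the log2 scale and Pearson's r between 0.9972 and 0.9979 over genes, which are not independent replicates. Many genes had exactly the same value on several arrays, and 28.9% had 1 value on all +DOX arrays. Satb1 had log2 levels of 8.61, 8.79 and 8.68 on the +DOX arrays, against 4.95 and 5.34 on the no DOX arrays, so the induced gene was high in the cells labelled as induced. All 8 ES cell markers looked for, such as Pou5f1 and Utf1, were measured, and their mean log2 level was between 9.39 and 9.41 on the +DOX arrays, against 9.40 and 9.45 on the no DOX arrays.

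Sall1 was the member with the clearest difference. It had log2 levels of 7.15, 7.08 and 7.09 on the +DOX arrays, against 7.74 and 7.79 on the no DOX arrays. All +DOX arrays were low and both no DOX arrays were high, without overlap. Its mean was 7.11 ± 0.04 (SD, n = 3) with DOX and 7.77 ± 0.04 (SD, n = 2) without, a log2 difference of -0.66 with a standard error of 0.03. That standard error was 0.06 with limma's prior spread taken from the 1800 genes that had 5 distinct values. On a linear scale Sall1 was 1.58-fold lower with DOX. The lowest no DOX value exceeded the highest +DOX value by 0.59, whereas values within a group spread over 0.07 with DOX and 0.05 without. Of the 19938 genes, 4 had a larger decrease, and 3 had a wider gap with all +DOX values on the lower side. The 3 comprised Egln3, whose product hydroxylates HIF, at a gap of 0.70, Bnip3, a mitophagy receptor gene, at 0.62, and Jam2, a junctional adhesion molecule gene, at 0.60; they were named after their values were seen.

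With each array left out in turn, the Sall1 difference lay between -0.69 and -0.64. Values within a group spread over only 0.07 with DOX and 0.05 without, so it could not move far. This range therefore adds nothing to the levels given above. In bulk RNA such as this, fewer cells that express a gene and less RNA per cell cannot be told apart.

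Sall4, the member with the best known role in ES cells, was close to equal in both groups. It had log2 levels of 8.55, 8.64 and 8.66 on the +DOX arrays, against 8.52 and 8.72 on the no DOX arrays. The no DOX arrays were the lowest and the highest of the 5, so that all +DOX values lay between them. Its mean was 8.62 ± 0.05 (SD, n = 3) with DOX and 8.62 ± 0.14 (SD, n = 2) without. The log2 difference was -0.002 with a standard error of 0.08, smaller than the spread between arrays. Without no DOX array 1 the difference was -0.10, and without no DOX array 2 it was 0.09, so that its sign followed the choice of array.

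Sall3 had a small difference. Its log2 level was 5.35 on each of the 3 +DOX arrays, to the last deposited digit, against 5.50 and 5.38 on the no DOX arrays. Every +DOX array lay below both no DOX arrays, by 0.04 for the nearer one. The mean was 5.35 with DOX and 5.44 ± 0.09 (SD, n = 2) without, a log2 difference of -0.10 with a standard error of 0.04. The exact tie removes any spread from the +DOX group, so this standard error is too small. The difference was -0.04 without no DOX array 1 and -0.16 without no DOX array 2.

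Sall2 had no steady difference. Its log2 levels were 4.31, 4.79 and 4.61 on the +DOX arrays, against 4.67 and 4.61 on the no DOX arrays. The +DOX arrays included both the lowest and the highest value, and +DOX array 3 had the same value as no DOX array 2. The mean was 4.57 ± 0.24 (SD, n = 3) with DOX and 4.64 ± 0.05 (SD, n = 2) without, a log2 difference of -0.07 with a standard error of 0.17. Without +DOX array 1 the difference was 0.06, and without +DOX array 2 it was -0.18. Sall2 thus had the widest spread among +DOX arrays of the 4 members, at 0.47 from lowest to highest, against 0.10 for Sall4, 0.07 for Sall1 and 0 for Sall3.

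**Figure D1:**
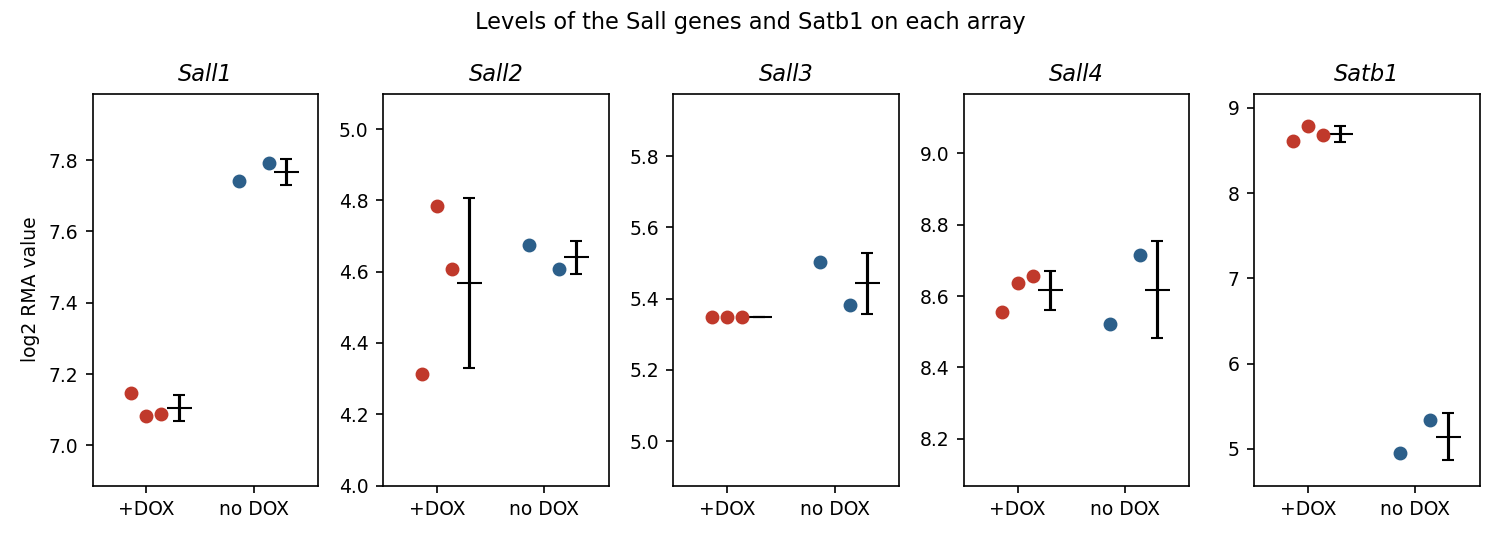
Log2 RMA values (vertical axis) of Sall1, Sall2, Sall3, Sall4 and Satb1 on each array, with +DOX arrays (n = 3, red) left of no DOX arrays (n = 2, blue) and the mean ± SD in black. The Sall panels share 1 axis length and the Satb1 panel has a longer one; Sall1 falls into separate groups, at 7.08 to 7.15 with DOX and 7.74 to 7.79 without, and the groups of Sall2 and Sall4 overlap.

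Set side by side, the log2 differences of the 4 members were -0.66, -0.07, -0.10 and -0.002 for Sall1 to Sall4. The difference of Sall1 minus that of Sall2 was -0.59, minus that of Sall3 -0.57 and minus that of Sall4 -0.66, which was not tested because the family was chosen on this contrast. All 4 means were lower with DOX, where 45.3% of all genes had a lower and 39.6% a higher mean. Sall1 and Sall3, 2 of the 4, had every +DOX array below every no DOX array, as had 3.08% of all genes, and 0 had every +DOX array above, as had 1.65% of all genes. Sall1 alone among the 4 was lower by 1.5-fold or more, as were 0.0301% of all genes. In limma over all genes, 0 of the 4 passed an adjusted p of 0.05, against 0.00502% of genes passing as lower and 0.01% as higher. A larger difference in either direction than that of Sall1 was found in 5 genes, or 0.0251%. For Sall3 this share was 15.3%, for Sall2 23.8% and for Sall4 83.0%.

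**Figure D2:**
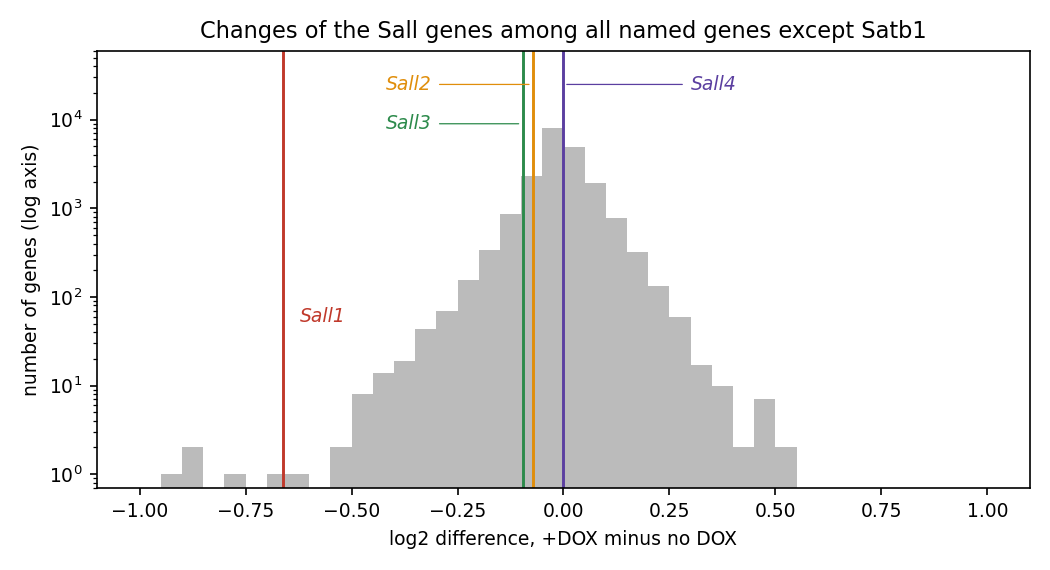
Number of genes (vertical log axis) by log2 difference, +DOX minus no DOX (horizontal axis), for all named genes except Satb1, with vertical lines at the 4 Sall genes. Sall1, at -0.66, lies in the sparse lower tail, and Sall2, Sall3 and Sall4 lie in the bulk between -0.10 and 0.

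The genes whose pattern over the 5 arrays was most like that of Sall1 were found by the Euclidean distance between each gene's log2 deviations from its own mean. The nearest was P4ha1, a collagen prolyl 4-hydroxylase gene, at a distance of 0.24. Its log2 levels were 6.17, 6.28 and 6.22 on the +DOX arrays, against 6.68 and 6.73 on the no DOX arrays. Its log2 difference was -0.48, smaller than that of Sall1. The next were Ddit4, an inhibitor of mTORC1 signalling, at a distance of 0.24 and a log2 difference of -0.50, and Prelid2, at 0.25 and -0.47. Slc16a3, the gene of the lactate transporter MCT4, was at 0.25 with a difference of -0.45. Jam2 was at 0.25 with a difference of -0.79, and Pfkp, a phosphofructokinase gene, at 0.28 with -0.43. In all 6 genes each +DOX array lay below both no DOX arrays, as in 3.08% of all genes. This had to hold, since at such distances the gap of 0.59 in Sall1 cannot close. A gene with the same value on every array would be at a distance of 0.73 from Sall1, and the other members were at 0.63 (Sall3), 0.74 (Sall4) and 0.76 (Sall2). This likeness was measured over 5 arrays and includes the difference by which Sall1 was singled out, so it is a description.

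**Figure D3:**
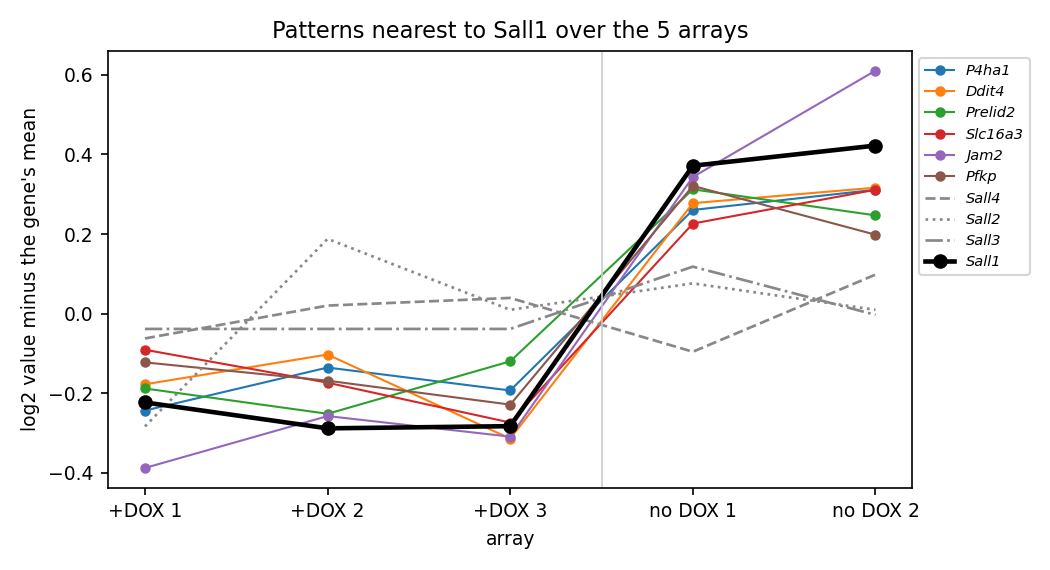
Log2 value minus the gene's own mean (vertical axis) on each array (horizontal axis, +DOX arrays left of the no DOX arrays) for Sall1 in black, the 6 genes nearest to it in colour, and the other Sall genes in grey; lines join the values of a gene and imply no order of arrays. The 6 coloured genes follow Sall1 to log2 differences between -0.79 and -0.43, while the grey lines stay between -0.28 and 0.19.

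Subunits of NuRD, through which SALL proteins act on chromatin, showed no call. Of 15 measured subunits, 0 were higher and 0 were lower at an adjusted p of 0.05 (limma over all genes). Among all genes 0.00502% passed as lower and 0.01% as higher, so a count of 0 says little about a short list. Without adjustment 1 subunit was lower and 0 higher at a p under 0.05, where 1.07% of all genes were lower and 0.481% higher. The 1 was Hdac2, a deacetylase gene, with a log2 difference of -0.12 ± 0.04 (standard error), named after its value was seen. The means of 7 were lower and of 8 higher, with a median log2 difference of 0.01, beside a median of 0 over all genes. The subunits with the largest differences were Chd5, a remodeller gene, and Mta1, a scaffold gene. Chd5 had log2 levels of 5.25, 5.25 and 5.31 on the +DOX arrays, against 4.95 and 5.25 on the no DOX arrays, a log2 difference of 0.17 ± 0.11 (standard error). For Mta1 the log2 difference was 0.16 ± 0.11 (standard error). In both genes the no DOX arrays differed from each other by more than the groups did, and neither passed (adjusted p = 0.770, limma).

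Transcription factors of the ES cell network, in which SALL4 and SALL1 take part, were measured for 16 of 17 listed. Of the 16, 0 were higher and 0 lower at an adjusted p of 0.05, beside 0.01% and 0.00502% of all genes. Without adjustment 2 were lower, Nr5a2 and Nr0b1, and 0 higher at a p under 0.05, beside 1.07% and 0.481% of all genes. Nr0b1, another nuclear receptor gene, had a log2 difference of -0.25 ± 0.08 (standard error) and was named after its value was seen. The means of 12 were lower, of 3 higher and of 1 equal, and the median log2 difference was -0.04. The largest differences were those of Klf4, a reprogramming factor gene, at -0.35 ± 0.19, and the nuclear receptor gene Nr5a2, at -0.27 ± 0.05 (standard errors). Nr5a2 had log2 levels of 6.28, 6.23 and 6.14 on the +DOX arrays, against 6.49 and 6.47 on the no DOX arrays. Neither passed (adjusted p = 0.770 for both, limma). In 3 of the 16 every +DOX array lay below both no DOX arrays, where 3.08% of all genes did so.

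The partners of SALL4 at the centre of this network differed little. Pou5f1, which encodes OCT4, had a log2 difference of 0.04 ± 0.03, Nanog one of -0.06 ± 0.04 and Sox2 one of -0.005 ± 0.03 (standard errors). Among the ES cell markers the largest difference was that of Tdgf1, the Nodal co-receptor gene also called Cripto, at -0.21 ± 0.03 (standard error). Dppa5a was next, at 0.06 ± 0.05 (standard error). Tdgf1 had 11.1, 11.1 and 11.0 on the +DOX arrays, against 11.2 and 11.3 on the no DOX arrays, on the log2 scale, without overlap, and did not pass (adjusted p = 0.770, limma).

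Genes of the lineages and organs in which the Sall genes act gave 0 calls in either direction at an adjusted p of 0.05. Of all genes, 0.00502% were called lower and 0.01% higher. The lists held 13 primitive endoderm and trophectoderm genes, with a median log2 difference of 0, 15 kidney and limb genes, with 0.02, and 11 measured of 12 listed neural genes, with -0.06. At an unadjusted p under 0.05 these lists held 1 lower gene, the trophectoderm factor gene Tfap2c at -0.07 ± 0.02 (standard error), and 0 higher genes, beside 1.07% lower and 0.481% higher among all genes. Tfap2c was named after its value was seen. The kidney and limb differences ran from -0.10 in Gdnf, a kidney growth factor gene, to 0.20 in Fgf10, a limb growth factor gene. Fgf10 had log2 levels of 4.09, 4.26 and 3.94 on the +DOX arrays, against 3.94 and 3.86 on the no DOX arrays, and +DOX array 3 shared its value with no DOX array 1. Wt1, a kidney transcription factor gene, was at 0.13 ± 0.08 (standard error). Eomes, a trophectoderm factor gene, had 0.10 ± 0.06, and Foxa2, an endoderm factor gene, had -0.10 ± 0.12 (standard errors). Of the neural genes, Nes, which encodes an intermediate filament of neural precursors, had 0.20 ± 0.21, and Neurog1, a proneural factor gene, had -0.13 ± 0.10 (standard errors).

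In limma over all genes, 0.00502% passed as lower and 0.01% as higher at an adjusted p of 0.05. Of 8 measured genes, out of 11 listed, for proteins other than SALL that bind AT-rich DNA, 0 passed at this threshold. Satb1 itself was among them, with a log2 difference of 3.55 ± 0.15 (standard error) and an adjusted p of 0.229, and it was the 1 gene of the list with an unadjusted p under 0.05, in the direction in which 0.481% of all genes had one. With limma's prior spread taken from the 1800 genes that had 5 distinct values, Satb1 passed (adjusted p = 0.0038). Apart from Satb1, the largest difference was that of Arid3a, at -0.11 ± 0.09 (standard error).

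**Figure D4:**
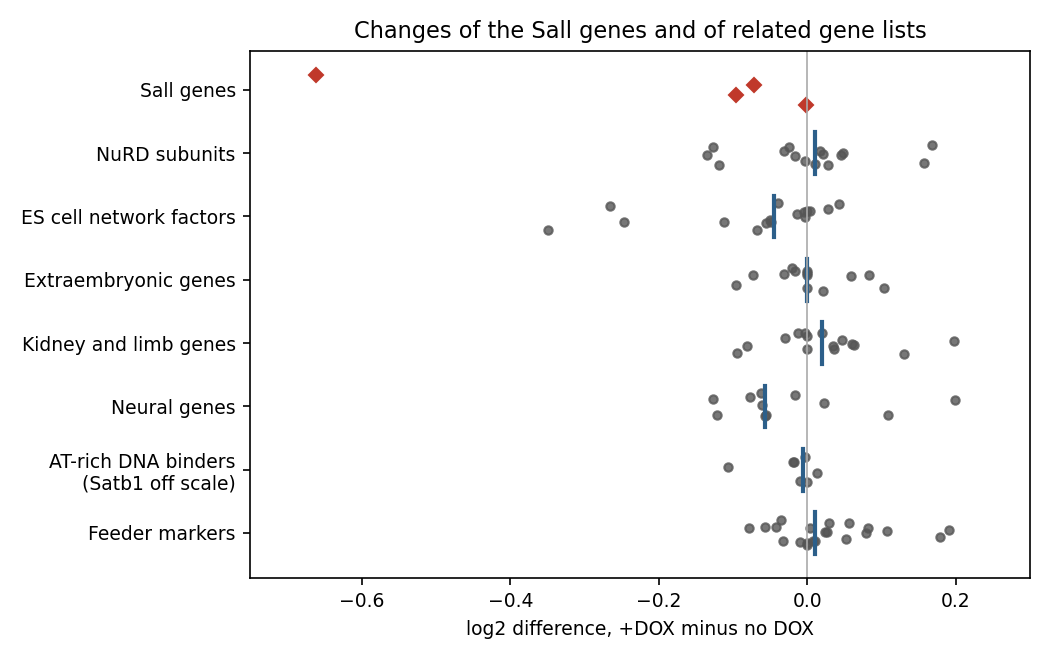
Log2 difference, +DOX minus no DOX (horizontal axis), of the 4 Sall genes (red diamonds, Sall1 to Sall4 from top to bottom) and of the measured members of 7 gene lists (grey points, 1 per gene, with vertical jitter; blue lines are list medians, and Satb1 at 3.55 is off the scale). Sall1 lies at -0.66, and no other gene drawn lies below the -0.35 of Klf4.

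Markers of feeder fibroblasts were slightly higher on the arrays where Sall1 was low. The mean log2 level of 21 measured markers, out of 22 listed, was between 5.38 and 5.39 on the +DOX arrays, against 5.35 and 5.36 on the no DOX arrays. Of these markers 13 had a higher mean with DOX, 6 a lower and 2 an equal one, with a median log2 difference of 0.01. At an adjusted p of 0.05 (limma) 0 passed, beside 0.00502% of all genes as lower and 0.01% as higher. At an unadjusted p under 0.05 also 0 passed, beside 1.07% lower and 0.481% higher. The largest difference was that of Tagln, a smooth muscle and fibroblast gene, at 0.19 ± 0.14 (standard error), followed by Acta2, the smooth muscle actin gene, at 0.18 ± 0.14 (standard error). With the marker mean as a covariate the Sall1 difference was -0.67, beside -0.66 without it. The marker mean was higher on every +DOX array than on both no DOX arrays. That fit therefore cannot tell feeder content and DOX apart, and nothing is read from it. In the same fit Sall2 was at -0.49, Sall4 at -0.33 and Sall3 at 0.07. Each moved from its value without the covariate by more than its SD within groups, pooled over both groups. That SD was 0.20 for Sall2, 0.09 for Sall4 and 0.05 for Sall3.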

How the data were processed

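RNA of 5 samples was measured on microarrays with biotin-labelled RNA. The authors deposited log2 values for 35557 probe sets, made with RMA, which corrects background, normalizes arrays to each other and summarises probes, per the submitters' processing notes. Its version and any genome build are not stated there, and the log2 scale was inferred from the range of 0.79 to 13.1. The table holds no detection calls. Levels of different probe sets were not compared.

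Probe sets with 1 gene symbol (21789) were named through the array's annotation, and 21698 of them matched RefSeq genes by identifier. A further 1621 had several symbols and 12147 were not listed. The probe set with the highest mean stood for a gene, without a filter on low values. Differences came from limma 3.58.1 (lmFit and eBayes) in R 4.3.3 over all 19938 genes, with Benjamini-Hochberg adjustment. With 10 possible splits of the arrays, an exact permutation test cannot reach a p under 0.1 and was left out. Exact ties between arrays lower limma's prior SD to 0.005, against 0.086 over the 1800 genes with 5 distinct values.

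The members and gene lists were chosen with earlier results of these data known. Genes named by a fixed rule were the members, Satb1, the 6 genes nearest to Sall1 in pattern, Pou5f1, Nanog, Sox2 and the 2 genes of each list with the largest difference. Egln3, Bnip3, Hdac2, Nr0b1 and Tfap2c were named after their values were seen. Gdnf was named as the lowest of the kidney and limb list, and Utf1 as an example of a marker. Tested on simulated data for this comparison without ties, over 19938 genes, limma called 79 of 100 planted log2 changes of size 1 and 39 of 100 of size 0.5, and wrongly called 5 of 19738 unchanged genes. The simulated spreads came from the 1800 genes with 5 distinct values, so these rates do not describe the fit reported. In that fit even Satb1, at a log2 difference of 3.55, was not called. The alternatives are given in the closing section.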

Additional observations from a re-analysis of the deposited data

How the results depend on the processing

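In the 10 alternatives run for it, the Sall1 difference lay between -0.69 and -0.64. The family was chosen on this contrast, and leaving out an array could not move Sall1 far. The range is therefore a description. The mean over all probe sets of a gene could not differ, since each member had 1 probe set. The replicate block gave the same difference as leaving out +DOX array 3, whose title number no other array shared. Sall3, Sall4 and Sall2 were at 0.073, -0.33 and -0.49 with the feeder mean as a covariate, a fit that cannot tell feeder content and DOX apart. With single arrays left out, Sall2 ran from -0.18 to 0.06, Sall3 from -0.16 to -0.035 and Sall4 from -0.099 to 0.095. Quantile normalization applied again put Sall4 at 0.02, and centring the arrays on their medians moved no member by more than its pooled SD within groups.

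The 2 higher and 1 lower genes fell to 0 and 0 under centring, a second quantile normalization, the feeder covariate and a restriction to genes above the median level. An adjusted p threshold of 0.01 left 0 higher, and the prior from genes with 5 distinct values gave 1 higher and 0 lower and called 1 of the 103 listed genes, Satb1. The other alternatives that kept all arrays called 0 listed genes, as did the fit reported. Leaving out 1 array at a time gave 0 to 1051 higher genes and 0 to 1097 lower genes, and called 0 to 12 listed genes. The high counts came from the fits with a lone no DOX array. There the spread came from the +DOX arrays alone, on all of which 28.9% of all genes had 1 value. The cause of these and of the other changes was not tested. The alternatives for the listed genes were added after seeing the data.

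Same-numbered arrays were not shown to be paired, since their deviations from the group means correlated at -0.0063 and 0.0063. The fit with the title number as a replicate block called 0 genes in either direction and put the log2 differences at -0.65 for Sall1, -0.09 for Sall2, -0.10 for Sall3 and -0.02 for Sall4. Precision is limited by having 5 arrays.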
